A study of Mus musculus with 31 samples.

Results

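The 10 genes described here are the members of the Bcl2 family of apoptosis regulators most often studied in tumor cells. They were chosen by name: *Bcl2*, *Bcl2l1*, *Bcl2l2* and *Mcl1*, whose products protect cells from apoptosis, *Bax* and *Bak1*, the effectors, and *Bcl2l11*, *Bid*, *Bbc3* and *Pmaip1*, the BH3-only activators and sensitizers. They are 10 of the 17306 genes on the arrays, and the rule uses names and no threshold on expression. RNA was profiled in 31 neuroblastomas of mice that all carried the *TH-MYCN* transgene, in which the tyrosine hydroxylase promoter drives *MYCN* in sympathetic neuroblasts. Of these, 10 tumors arose with *TH-MYCN* alone (*MYCN* tumors), 10 with the knock-in (KI) *Alk* R1279Q allele as well, and 11 with the KI *Alk* F1178L allele. The 2 *Alk* mutations are the mouse counterparts of activating *ALK* mutations of human neuroblastoma, and each KI allele was expressed from the endogenous locus. Background, sex and age are known for 18 *MYCN*/*Alk* tumors. Mice were of 129S2 background for 5 R1279Q tumors (8.29 to 10.7 weeks old) and 4 F1178L tumors (5.14 to 6.29 weeks old). They were of 129B6F1 background, an F1 of crosses with C57BL/6 mice, for 3 R1279Q tumors (16.6 to 27.1 weeks old) and 6 F1178L tumors (9.14 to 19.1 weeks old). For the *MYCN* tumors and the other 3 *MYCN*/*Alk* tumors the labels allow either background and give no age.

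The Bcl2 family sets the threshold of the mitochondrial pathway of apoptosis. Bax and Bak1 open pores in the outer mitochondrial membrane, through which cytochrome c reaches the cytosol and activates caspases. Bcl2, its relatives encoded by *Bcl2l1* (Bcl-xL) and *Bcl2l2* (Bcl-w), and Mcl1 hold the effectors and the BH3-only proteins in check, while Bim (from *Bcl2l11*), Bid, Puma (from *Bbc3*) and Noxa (from *Pmaip1*) release or activate the effectors. Developing sympathetic neurons depend on this balance for survival, and MYCN is known to sensitize neuroblastoma cells to apoptosis.

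Values are log2 expression levels after GCRMA normalization, 1 array per tumor, and ran from 1.31 to 15.46 with array medians of 4.22 to 4.66. A gene was tested only where it lay above log2 4 in at least 10 tumors, as 9322 genes did, and a difference was called at an adjusted p under 0.05. All 9 sympathetic neuroblast markers were tested, and 4 of them, among them *Th* and *Dbh*, were higher in *MYCN*/*Alk* than in *MYCN* tumors. Of all tested genes 19% were higher and 21.6% lower in this comparison. None of the 6 T cell markers passed log2 4 in any tumor. No B cell marker was tested, and of these *Cd79b* and *Ms4a1* passed log2 4 in 1 tumor each. Of 10 macrophage markers 9 were tested, and 6 were lower in *MYCN*/*Alk* tumors. The arrays do not read the *Alk* mutations themselves. No scan or extraction batch was given. Tumors were treated as independent, but mice with several tumors occurred, and tumors 1 and 2, like tumors 16 and 19, shared genotype, background, sex and age.

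Of the 10 members, 6 passed the limit on low values: *Bcl2*, *Mcl1*, *Bax*, *Bcl2l11*, *Bid* and *Bbc3*. *Mcl1* and *Bax* were well above it in all 31 tumors. *Bcl2l1*, *Bcl2l2* and *Bak1* never passed log2 4, with ranges of 2.11 to 2.20, 2.52 to 2.74 and 2.29 to 2.41 over the 31 tumors. Such flat values lie near the lower quartile of the arrays (2.33 to 2.45), so that the probe sets gave no usable signal and say nothing of whether the genes were expressed. *Pmaip1* passed log2 4 in 8 of 31 tumors and was not tested with the others.

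**Figure D1:**
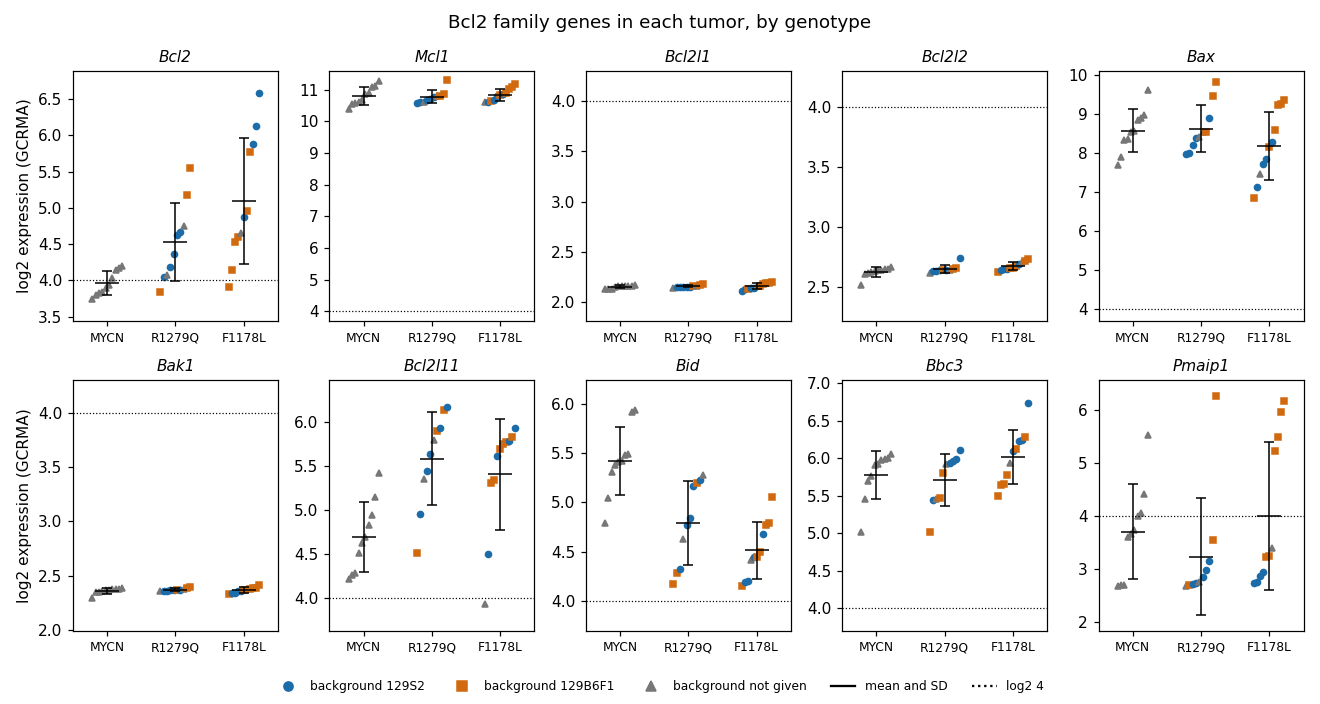
Log2 expression (GCRMA) of the 10 members in each tumor, by genotype, sorted from low to high within a genotype. Colors and symbols give the background, bars the mean and SD of 10 *MYCN*, 10 R1279Q and 11 F1178L tumors, and the dotted line log2 4; *Bcl2l11* was higher and *Bid* lower in both mutant groups and *Bcl2* higher in F1178L tumors, while *Bcl2l1*, *Bcl2l2* and *Bak1* lay below the line throughout.

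To see how the family differed by *Alk* genotype, *MYCN*/*Alk* tumors of both mutations were compared with *MYCN* tumors. Background, sex and age of the *MYCN* tumors are not given. In all comparisons with *MYCN* tumors, the *Alk* allele therefore cannot be told apart from background, sex and age. *Bcl2*, which protects cells, and *Bcl2l11*, whose product Bim promotes death, were both higher in *MYCN*/*Alk* tumors, and *Bid*, which links death receptors to mitochondria, was lower. These were 3 of the 6 tested members, where 40.7% of all tested genes were called. *Bcl2* was tested through the tumors in which it was high, since it passed log2 4 in 19 of 21 *MYCN*/*Alk* and 4 of 10 *MYCN* tumors, so that its call adds no support to the count. In direction, 2 members were higher, against 19% of all tested genes, and 1 was lower, against 21.6%. *Mcl1*, *Bax* and *Bbc3* were not called. The median difference of all tested genes was −0.04 on the log2 scale.

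*Bcl2* lies on chromosome 1 (chr1:106538176-106714290, GRCm38). It ranged from 3.74 to 4.20 in *MYCN* tumors with a median of 3.92, from 3.84 to 5.55 in R1279Q tumors with a median of 4.49, and from 3.91 to 6.59 in F1178L tumors with a median of 4.87. Of the F1178L tumors 9 of 11, and of the R1279Q tumors 6 of 10, lay above the highest *MYCN* tumor. The *MYCN* values were packed around log2 4 and those of both mutant groups spread widely upward, with overlap at the bottom. The group means were 3.96 ± 0.17 (SD, n = 10), 4.52 ± 0.54 (SD, n = 10) and 5.09 ± 0.87 (SD, n = 11). In *MYCN*/*Alk* against *MYCN* tumors *Bcl2* rose by 0.85 on the log2 scale (SE 0.23, limma adjusted p = 0.00374). Since the *MYCN* mean was below log2 4, the fold was taken with *MYCN* values held at that limit, which made *Bcl2* at least 1.69-fold higher.

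*Bcl2l11* (chr2:128126038-128162547) ranged from 4.22 to 5.43 in *MYCN* tumors with a median of 4.66, from 4.52 to 6.18 in R1279Q tumors with a median of 5.72, and from 3.93 to 5.94 in F1178L tumors with a median of 5.70. In each mutant group 7 tumors exceeded every *MYCN* tumor, and F1178L tumors 36 (3.93) and 31 (4.50) and R1279Q tumor 5 (4.52) stood low. The group means were 4.69 ± 0.40 (SD, n = 10), 5.59 ± 0.53 (SD, n = 10) and 5.41 ± 0.63 (SD, n = 11). *Bcl2l11* rose by 0.80 on the log2 scale in *MYCN*/*Alk* tumors, 1.75-fold (SE 0.20, limma adjusted p = 0.00208).

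*Bid* (chr6:120893119-120917062) showed the reverse order. It ranged from 4.79 to 5.94 in *MYCN* tumors with a median of 5.41, from 4.17 to 5.28 in R1279Q tumors with a median of 4.81, and from 4.15 to 5.06 in F1178L tumors with a median of 4.45. All 21 *MYCN*/*Alk* tumors lay below the *MYCN* median, and 9 of 11 F1178L and 5 of 10 R1279Q tumors lay below the lowest *MYCN* tumor. The group means were 5.42 ± 0.35 (SD, n = 10), 4.79 ± 0.42 (SD, n = 10) and 4.51 ± 0.29 (SD, n = 11). *Bid* fell by 0.77 on the log2 scale, which made it 1.70-fold lower in *MYCN*/*Alk* tumors (SE 0.14, limma adjusted p = 6.43e-05).

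With tumors of both mutations set against *MYCN* tumors, 6 of the 9 tested macrophage markers were called lower. The other 3 were not called, and 21.6% of all tested genes were lower. In F1178L against *MYCN* tumors 7 of the 9 were lower, where 26.4% of all tested genes were. In R1279Q against *MYCN* tumors 1 of the 9 was lower, where 7.04% were. Over the 10 markers, the mean level per tumor ranged from 6.71 to 8.27 in *MYCN*, from 6.44 to 8.35 in R1279Q and from 5.90 to 7.49 in F1178L tumors. The median difference of the 9 tested markers was −0.64 in *MYCN*/*Alk* against *MYCN* tumors. Of 9 endothelial and mural markers only 4 were tested, with a median of −1.17, and 3 of these were also called lower. So were the 1 tested erythroid marker, *Alas2*, and the 1 tested neutrophil marker, *S100a8*, with *MYCN* means of 6.65 and 6.82 against 2.62 and 3.30 in R1279Q and 3.35 and 4.09 in F1178L tumors. Of 5 tested fibroblast markers 0 were called in *MYCN*/*Alk* against *MYCN* tumors, and 1 was higher in F1178L against *MYCN* tumors. The part of all these markers in the rises of *Bcl2* and *Bcl2l11* and the fall of *Bid* was not tested. In whole tumors, fewer cells of a type and less RNA per cell cannot be told apart.

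The sequences before the transcription starts of both genes that rose are shown because both were called higher in *MYCN*/*Alk* tumors. Within a genotype their levels were not seen to run together (*MYCN* tumors r = −0.12, permutation p = 0.738; R1279Q r = −0.42, p = 0.231; F1178L r = 0.0085, p = 0.982). They are the 250 bases upstream of the *Bcl2* start (chr1:106714291-106714540, minus strand) and of the first *Bcl2l11* start (chr2:128125788-128126037, plus strand), from RefSeq on GRCm38.p6, each written 5′ to 3′. Capitals mark the GC box GGGCGG, bound by Sp1, and the FOXO motif TGTTTAC, searched on both strands.
Bcl2: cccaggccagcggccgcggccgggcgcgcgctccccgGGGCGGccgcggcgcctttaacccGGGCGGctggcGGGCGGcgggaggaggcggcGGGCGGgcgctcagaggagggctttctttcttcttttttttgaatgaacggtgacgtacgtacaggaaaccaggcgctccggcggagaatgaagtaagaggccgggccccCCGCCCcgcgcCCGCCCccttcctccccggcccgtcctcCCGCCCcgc
Bcl2l11: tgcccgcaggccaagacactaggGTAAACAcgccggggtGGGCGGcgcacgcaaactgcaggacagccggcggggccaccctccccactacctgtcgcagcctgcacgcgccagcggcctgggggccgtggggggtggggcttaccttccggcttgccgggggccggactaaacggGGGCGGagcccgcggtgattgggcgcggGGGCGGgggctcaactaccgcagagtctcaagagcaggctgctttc
Both are rich in CpG dinucleotides, with 36 in the *Bcl2* window and 24 in the *Bcl2l11* window, against a median of 6 over 32851 mouse promoters of that length. The *Bcl2* window holds 7 GC boxes and the *Bcl2l11* window 3, and 32.7% of all promoters hold at least 1. The *Bcl2l11* window has 1 FOXO match, which begins at position −227 from the start and reads GTAAACA in the written strand, and 3.17% of all promoters have one. The window of a second *Bcl2l11* start has none. Members that did not rise had such features too: the *Mcl1* window holds 26 CpG and 1 GC box, that of *Bid* 18 CpG and 3 GC boxes, and the 3 *Bbc3* windows 23 to 37 CpG, with a FOXO match in 1. Forkhead factors of the FOXO class are known activators of Bim expression. Neither window contains the E-box CACGTG, the site of Myc proteins, or the CRE TGACGTCA, found in 6.02% and 1.55% of promoters. These matches describe letters and do not show that a factor was bound.

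The members that were not called differed in kind. *Mcl1* (chr3:95656944-95663179), a short-lived protector, had means of 10.80 ± 0.29 (SD, n = 10), 10.78 ± 0.21 (SD, n = 10) and 10.84 ± 0.20 (SD, n = 11) in the same order of genotypes. Its difference between *MYCN*/*Alk* and *MYCN* tumors was 0.01 on the log2 scale, with a 95% interval of −0.18 to 0.20. *Bax* (chr7:45461695-45466903) varied far more from tumor to tumor, from 6.85 in F1178L tumor 37 to 9.81 in R1279Q tumor 8, and its groups overlapped. Its means were 8.57 ± 0.55 (SD, n = 10), 8.62 ± 0.60 (SD, n = 10) and 8.17 ± 0.87 (SD, n = 11), with a difference of −0.18 between *MYCN*/*Alk* and *MYCN* tumors and an interval of −0.70 to 0.35. *Bbc3* (chr7:16308398-16318334) had means of 5.78 ± 0.32 (SD, n = 10), 5.71 ± 0.35 (SD, n = 10) and 6.02 ± 0.36 (SD, n = 11). Its difference was 0.09, with an interval of −0.18 to 0.36.

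Each mutation was then set against *MYCN* tumors on its own, and both comparisons use the same *MYCN* tumors. For F1178L, 3 of 6 members were called, where 46.5% of all tested genes were: 2 were higher (20.1% of all) and 1 lower (26.4%). *Bcl2* is among them. It was tested through the tumors in which it was high, so that its call adds no support to these counts. *Bcl2* rose by 1.13 on the log2 scale in F1178L tumors, at least 2.05-fold with *MYCN* values held at log2 4 (SE 0.26, limma adjusted p = 7.26e-04). *Bcl2l11* rose by 0.71 (SE 0.23, adjusted p = 0.0112), and *Bid* fell by 0.90, to a level 1.87-fold lower (SE 0.15, adjusted p = 2.97e-05).

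For R1279Q, 2 of 6 members were called, 1 higher and 1 lower, where 17.9% of all tested genes were called, 10.8% higher and 7.04% lower. *Bcl2l11* rose by 0.89 on the log2 scale (SE 0.23, limma adjusted p = 0.00797) and *Bid* fell by 0.63 (SE 0.16, adjusted p = 0.00625). The *Bcl2* difference of 0.56 did not pass (limma adjusted p = 0.134). With *MYCN* values held at log2 4 it came to at least 1.38-fold. Of the R1279Q tumors 9 of 10 lay above the *MYCN* median of 3.92, which is itself below log2 4. The methods' test is an unmoderated two-group comparison named in the methods, run here on the same values with Benjamini-Hochberg adjustment. By that test the *Bcl2* difference passed (adjusted p = 0.0355). Since *Bcl2* was tested through the tumors in which it was high, this adds no support for a rise.

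**Figure D2:**
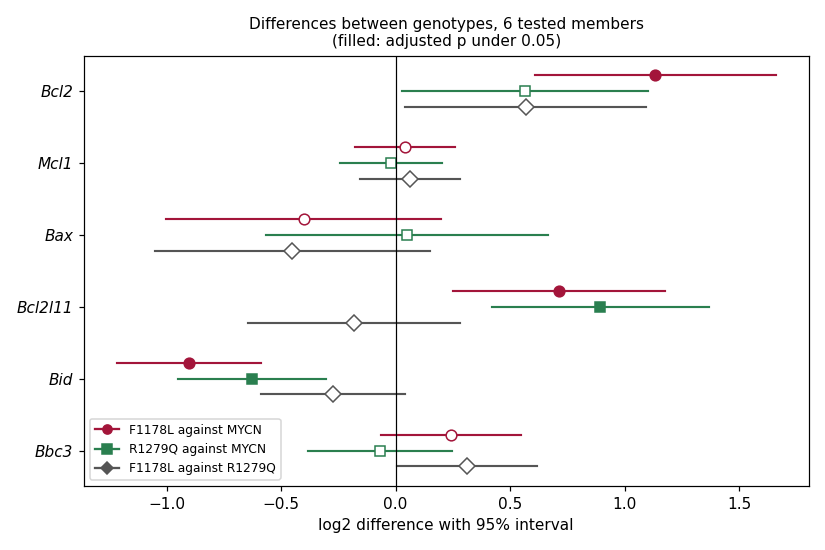
Log2 differences between genotypes for the 6 tested members, with 95% intervals from the fit over 31 tumors. Filled symbols mark adjusted p under 0.05; the *Bcl2* difference was 1.13 in F1178L and 0.56 in R1279Q against *MYCN* tumors, and no F1178L against R1279Q difference was filled.

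Whether the mutations differed from each other was tested directly. Between F1178L and R1279Q tumors limma called 0 of the 6 members, where 8.53% of all tested genes were called, and the methods' test also called 0 after adjustment. At an unadjusted p under 0.05, limma gave 2, *Bcl2* and *Bbc3*, against 27% of all tested genes, and the methods' test gave 0, against 25%. The *Bcl2* difference was 0.57 with a 95% interval of 0.04 to 1.09 (adjusted p = 0.152), and that of *Bbc3*, a direct target of p53, was 0.31 with an interval of 0.00375 to 0.617 (adjusted p = 0.179). *Bid* differed by −0.27 (adjusted p = 0.251), *Bax* by −0.45 (adjusted p = 0.33) and *Bcl2l11* by −0.18 (adjusted p = 0.651).

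The mutations were also compared within each background, where *Bcl2* passed in one and not in the other. In 129S2 mice the 4 F1178L tumors had *Bcl2* values of 4.87, 5.89, 6.12 and 6.59, and the 5 R1279Q tumors values of 4.05, 4.18, 4.36, 4.62 and 4.67. These groups did not overlap, and *Bcl2* was higher by 1.49 on the log2 scale in F1178L tumors (limma adjusted p = 0.00927). It was the 1 member called of 6, where 28% of all tested genes were called. In 129B6F1 mice the 6 F1178L tumors had values of 3.91, 4.14, 4.53, 4.59, 4.95 and 5.77, and the 3 R1279Q tumors 3.84, 5.17 and 5.55. Here the groups overlapped, with a difference of −0.20 (adjusted p = 0.972). By limma, 0 of the 6 members and 0.00% of all 9322 genes were called there, with 462 genes and 0 members at an unadjusted p under 0.05.

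The test of the difference between these differences did not pass. The mutation by background interaction of *Bcl2* was −1.70 (SE 0.58, limma adjusted p = 0.194). For this interaction 0 of 6 members were called, where 0.0751% of all tested genes were. At an unadjusted p under 0.05 limma gave 1 of 6, *Bcl2*, against 15.2% of all tested genes. Within 129S2, age and mutation cannot be told apart, and all 5 R1279Q tumors were from males against 2 of 4 F1178L tumors.

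**Figure D3:**
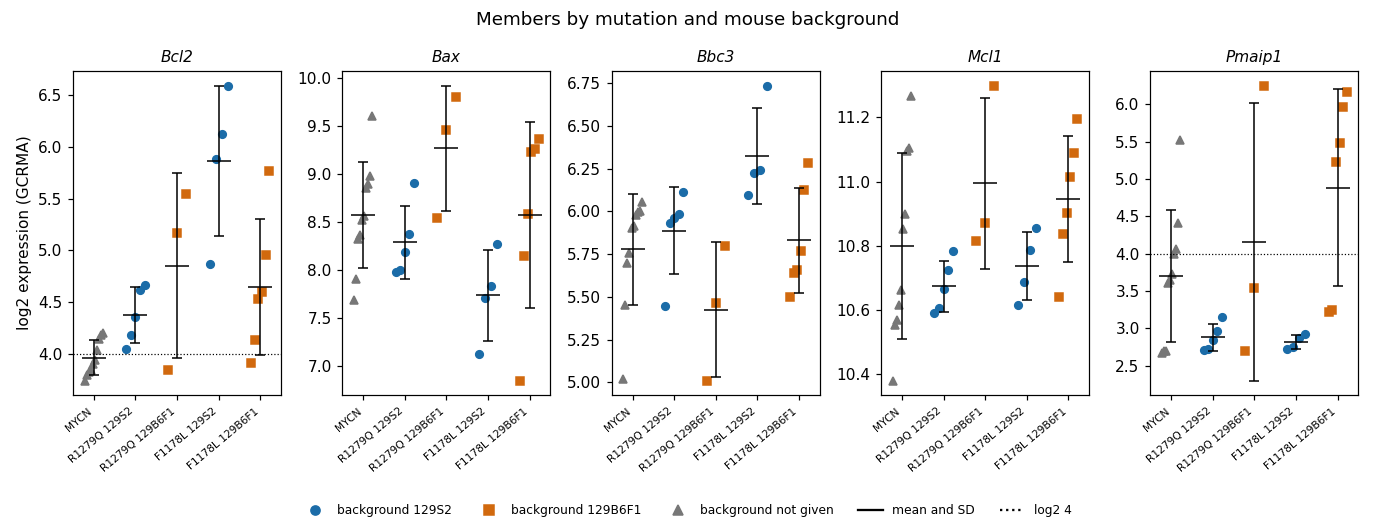
Log2 expression of *Bcl2*, *Bax*, *Bbc3*, *Mcl1* and *Pmaip1* by mutation and background, sorted from low to high within a group, with mean and SD. The 4 F1178L tumors of 129S2 mice hold the 3 highest *Bcl2* values (5.89, 6.12 and 6.59), and no 129S2 tumor passed log2 4, the dotted line, for *Pmaip1*.

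When F1178L tumors of each background were set against all *MYCN* tumors, whose background is not given, *Bcl2l11* and *Bid* were called in both. With 129S2 alone, 5 of 6 members were called, against 49.8% of all tested genes. Here too the call of *Bcl2* adds no support to the count. *Bcl2* was higher by 1.91 (adjusted p = 1.29e-06), *Bcl2l11* by 0.77 (adjusted p = 0.0234) and *Bbc3* by 0.55 (adjusted p = 0.0152), while *Bid* was lower at −1.04 (adjusted p = 2.47e-04) and *Bax* at −0.83 (adjusted p = 0.0199). With 129B6F1 alone, 2 of 6 were called, against 23.7% of all. *Bcl2l11* was higher by 0.92 (adjusted p = 0.00712) and *Bid* lower at −0.80 (adjusted p = 0.00621), and the *Bcl2* difference was 0.69 (adjusted p = 0.052).

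Background itself was compared over both mutations in the 18 tumors that have one, and there it goes with age. Between 129B6F1 and 129S2 limma called 0 of 6 members, where 4.99% of all tested genes were called, and 3 (*Mcl1*, *Bax* and *Bbc3*) had an unadjusted p under 0.05, as 24.1% of all tested genes did. *Bax* differed by 0.90 (SE 0.31, adjusted p = 0.0915), *Mcl1* by 0.26 (SE 0.10, adjusted p = 0.112) and *Bbc3* by −0.48 (SE 0.14, adjusted p = 0.0605). Without F1178L tumor 37, which had the lowest *Bax* level, *Bax* was called at 1.09 (adjusted p = 0.0114), and without R1279Q tumor 5 *Bbc3* was called at −0.55 (adjusted p = 0.0384). Leaving out tumor 37 or tumor 5 also raised the calls over all 9322 tested genes, from 465 to 849 and 567. With age as a covariate, chosen after seeing the data, the *Bax* difference was 0.22 (adjusted p = 0.934) and 1 of all tested genes was called.

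*Pmaip1*, which encodes the Mcl1-binding Noxa, was the member with the most uneven levels. In 129S2 mice it lay between 2.71 and 3.15 in all 9 tumors and passed log2 4 in 0 of them. In 129B6F1 mice it passed log2 4 in 5 of 9 tumors: F1178L tumors 4 (5.23), 38 (5.48), 1 (5.96) and 11 (6.16) and R1279Q tumor 8 (6.25). Among *MYCN* tumors, 25 (4.06), 3 (4.41) and 22 (5.52) did so. With all 17306 genes in the fit the difference between backgrounds was 1.72 and was not called (limma adjusted p = 0.0659). There 1.58% of all genes were called. Here too background goes with age. Since the 129S2 values lie below the limit, the difference of 1.72 gives no fold.

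Within a genotype the members were compared pair by pair, 15 pairs of the 6 tested members in each of 3 genotypes, 45 in all. In R1279Q tumors *Bcl2* and *Bid* ran opposite to each other, with r = −0.92 (n = 10, permutation p = 8e-05, adjusted over the 45 pairs 0.0036) and Spearman's rho = −0.88 (permutation p = 0.00174, adjusted 0.0783). Without the 2 tumors farthest from the *Bcl2* median, r was −0.86. R1279Q tumors 5 and 8, highest in *Bcl2*, were lowest in *Bid* (4.28 and 4.17). For the same pair r was −0.48 in *MYCN* tumors (permutation p = 0.165, adjusted 0.527) and −0.44 in F1178L tumors (permutation p = 0.175, adjusted 0.527), and whether these differ from R1279Q was not tested. Both backgrounds hold under 6 R1279Q tumors, so that no value within a background was given. It was the 1 pair of 45 past the threshold by r, and 0 passed by rho, with 7 at an unadjusted permutation p of r under 0.05. The next was *Mcl1* with *Bax* in F1178L tumors (r = 0.77, permutation p = 0.0066, adjusted 0.148).

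**Figure D4:**
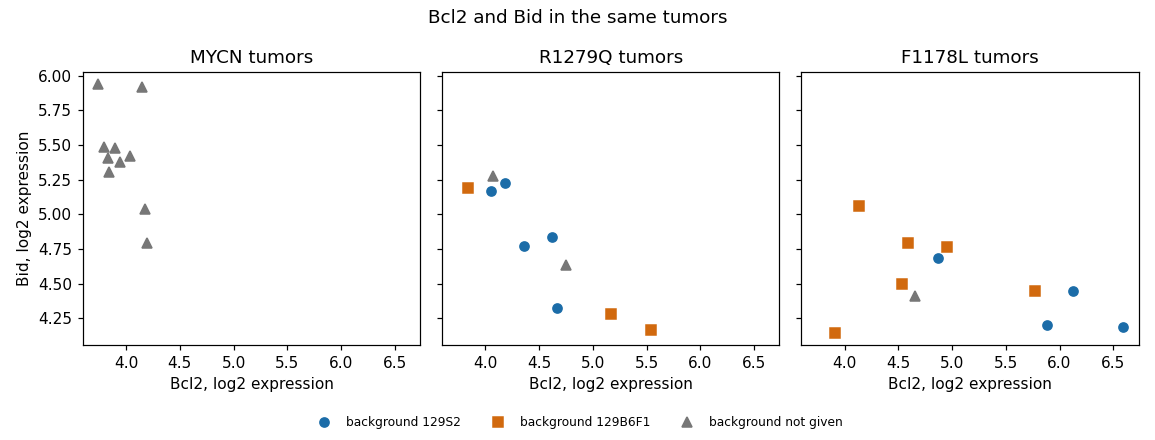
Log2 expression of *Bid* against *Bcl2* in the same tumors, 1 panel per genotype, with symbols for the background. In the 10 R1279Q tumors *Bid* was lower where *Bcl2* was higher (r = −0.92), and in *MYCN* and F1178L tumors r was −0.48 and −0.44.

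Over all 31 tumors, differences between genotypes included, the genes most like *Bid* included *Noa1* (r = 0.87), a mitochondrial GTPase gene, and *Pwwp3b* (r = 0.86). Those most like *Bcl2l11* were *Tmem209* (r = 0.79), *Actc1* (r = 0.75), the cardiac actin gene, and *Lancl2* (r = 0.72). These are descriptions over tumors of 3 genotypes.

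Copy number calls exist for the same 18 tumors. *Mcl1* lies on chromosome 3, which was gained in F1178L tumors 2, 4 and 38 of 129B6F1 mice. *Mcl1* levels were 11.06 ± 0.15 (SD, n = 3) in these and 10.83 ± 0.19 (SD, n = 3) in F1178L tumors 1, 11 and 37 of the same background without the gain, a difference of 0.23 (two-sided exact permutation p = 0.2, where 0.1 is the smallest p this design allows). With 1 tumor left out the difference ranged from 0.14, without F1178L tumor 37, to 0.32, without F1178L tumor 1. *Bid* lies on chromosome 6, gained in F1178L tumor 2 (4.50) and R1279Q tumor 8 (4.17), and the latter had the lowest *Bid* level of the R1279Q tumors. *Bcl2l11* lies on chromosome 2, lost in F1178L tumor 2 (5.70) and gained in part in R1279Q tumor 9 (6.14).

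Beyond the 10 members, lists of the wider pathway were read against *MYCN* tumors. Of the apoptosome and caspase genes 10 of 13 were tested, and 2 were higher and 2 lower in *MYCN*/*Alk* tumors, with a median of −0.25. These counts lie near the shares of all tested genes, 19% higher and 21.6% lower. *Casp9*, the initiator caspase of the apoptosome, was higher by 0.34 (adjusted p = 0.0189) and *Diablo*, whose product blocks inhibitors of apoptosis, by 0.45 (adjusted p = 0.0216). *Endog*, a mitochondrial nuclease gene, was lower at −1.01 (adjusted p = 8e-05), and *Htra2*, a mitochondrial protease gene, at −0.39 (adjusted p = 0.0354). In F1178L against *MYCN* tumors 2 were higher and 6 lower, where 20.1% of all tested genes were higher and 26.4% lower. One of the 6 was *Apaf1*, the apoptosome scaffold, whose F1178L mean of 3.83 lay below log2 4 (adjusted p = 0.0167). With F1178L values held at that limit its difference was −0.16. In R1279Q against *MYCN* tumors 1 was lower, *Endog* at −0.77 (adjusted p = 0.0114), where 7.04% of all tested genes were lower.

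Further genes of the Bcl2 family were 16, of which 6 were tested. In *MYCN*/*Alk* against *MYCN* tumors their adjusted p ran from 0.0906 to 0.773, and in F1178L against *MYCN* tumors 1 was higher and 2 were lower. Of all tested genes 20.1% were higher and 26.4% lower in F1178L against *MYCN* tumors. *Bnip3l*, a mitophagy receptor gene, was higher by 0.54 (adjusted p = 0.0314). *Bok*, a relative of *Bax*, was lower at −0.78 (adjusted p = 0.00222) and *Bnip2* at −0.42 (adjusted p = 0.00592). Both were also lower in F1178L than in R1279Q tumors, *Bok* at −0.82 (adjusted p = 0.0142) and *Bnip2* at −0.39 (adjusted p = 0.0444). There 8.53% of all tested genes were called. Of 6 inhibitors of apoptosis 3 were tested, and *Birc5* (survivin) was lower in *MYCN*/*Alk* tumors at −0.58 (adjusted p = 0.017), where 21.6% of all tested genes were lower. In F1178L against *MYCN* tumors 2 were lower, *Birc5* at −0.84 (limma adjusted p = 0.00229) and *Birc2* at −0.27 (adjusted p = 0.0106). *Birc2* was also lower in F1178L than in R1279Q tumors, at −0.40 (limma adjusted p = 0.00596).

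Of 12 known regulators of Bcl2 family transcripts 8 were tested, and 4 were higher and 1 lower in *MYCN*/*Alk* tumors, with a median of 0.41. For this list and those below, 19% of all tested genes were higher and 21.6% lower. Mouse *Mycn* was higher by 2.57 (adjusted p = 1.79e-07) and *Ddit3*, a stress factor gene known to induce Bim, by 0.80 (adjusted p = 0.00423). The Jun kinase genes *Mapk8* and *Mapk10* were higher by 0.51 (adjusted p = 0.00683) and 0.72 (adjusted p = 0.00386), and *E2f1* was lower at −0.74 (adjusted p = 0.0128). *Foxo3* never passed log2 4. Of 6 regulators of Mcl1 protein stability 4 were tested, and 1 was higher, *Fbxw7*, a ubiquitin ligase gene, by 0.46 (adjusted p = 0.0449). Of 9 genes of the death receptor pathway, which acts on Bid, only 3 were tested. *Casp8*, *Fas*, *Fadd* and *Ripk1* were among the untested ones, so that little of this pathway was read. For the 3 tested genes the adjusted p in *MYCN*/*Alk* against *MYCN* tumors ran from 0.0742 to 0.781, and for 2 voltage-dependent anion channel genes it was 0.433 and 0.64.

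**Figure D5:**
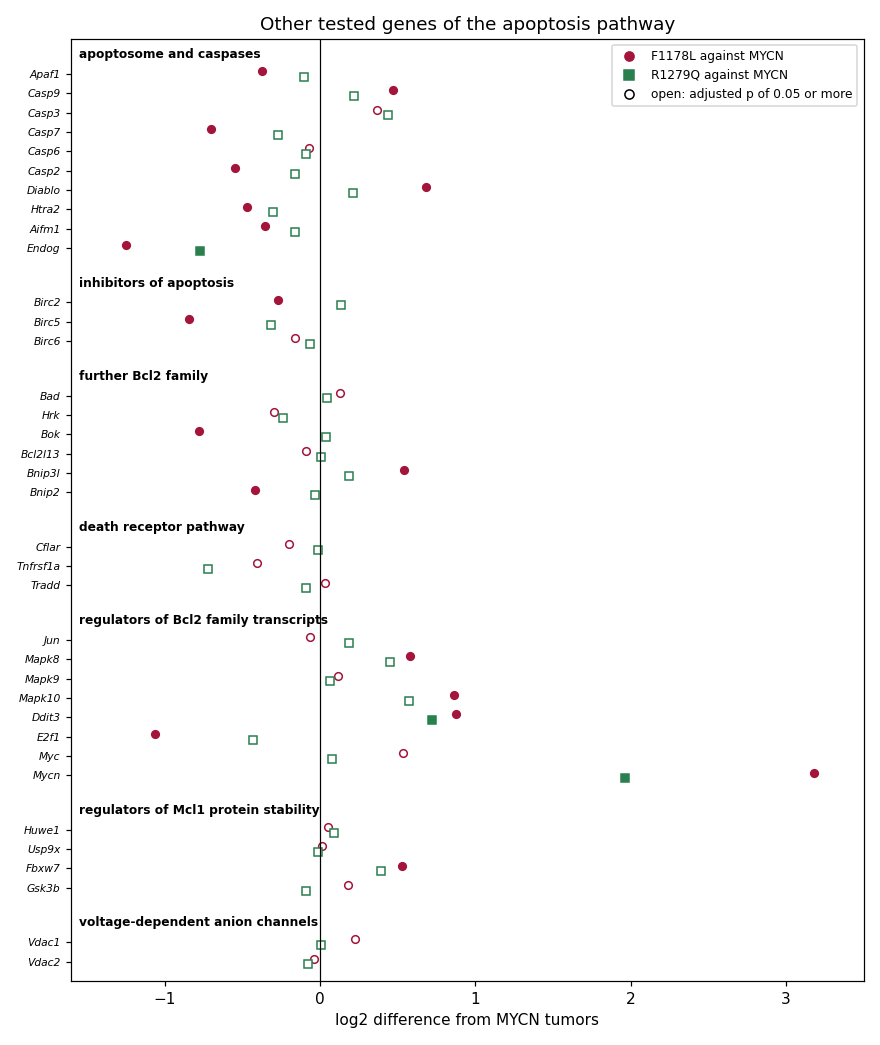
Log2 differences from *MYCN* tumors of the other tested genes of the apoptosis pathway, in F1178L (circles) and R1279Q tumors (squares), grouped by list. Filled symbols have an adjusted p under 0.05; *Mycn* had the largest rise of the genes plotted, and *Endog* was lower in both.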

How the data were processed

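The deposited values are the authors' log2 expression levels of 31 tumors on Affymetrix mouse arrays, normalized by GCRMA with Brainarray probe sets (1 per gene). GCRMA corrects for probe sequence and compresses low signals, so flat low values carry no order. Arrays give no counts, so tumor number and signal strength set the precision. Of 17306 rows, 16464 were named by the platform table and 480, *Bax* among them, by RefSeq gene ID only. limma 3.58.1 in R 4.3.3 fitted the 3 genotypes together on 9322 rows above log2 4 in at least 10 tumors, and mutation and background in 18 tumors. Tests were two-sided with Benjamini-Hochberg adjustment over all rows tested, at 0.05. The fit was tested on simulated data. Fold bounds hold *MYCN* values at log2 4. Correlations used 100000 permutations. Background, sex, age and copy number calls came from the paper by tumor number. Members and lists were chosen with earlier results of these data known. Named genes outside the 10 members were those of the fixed lists and, by correlation, the 3 most alike for *Bid* and *Bcl2l11*. A gene that this rule selected for *Bid* and a marker gene are not reported here. Alternatives were other filters, array scalings, array weights, moderation, the methods' test (Student's, unmoderated), covariates, single backgrounds and leaving out each tumor. Plots came from matplotlib 3.10.9 (Python 3.11.15).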

Additional observations from a re-analysis of the deposited data

Results flagged for a closer look

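Groups of 4 to 10 tumors were searched for 1 tumor far from the others. Of 35 sets, each 1 member in 1 group, 3 held one, and chance gives about 1 in 20 sets. The groups overlapped and tumor 8 recurred, so that the 3 are not independent. *Mcl1* in R1279Q tumors had its highest value in tumor 8, at 11.30, with the nearest at 10.87. *Pmaip1* in R1279Q tumors was also highest in tumor 8, at 6.25, where the nearest tumor had 3.54. *Bbc3* in R1279Q tumors of 129S2 mice was lowest in tumor 13, at 5.45, with the nearest at 5.93. Tumor 8 came from a 129B6F1 mouse and also had the highest *Bax* and *Bcl2* and the lowest *Bid* level of the R1279Q tumors.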

How the results depend on the processing

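The calls of *Bcl2*, *Bcl2l11* and *Bid* in *MYCN*/*Alk* and F1178L against *MYCN* tumors, and of *Bcl2l11* and *Bid* in R1279Q against *MYCN* tumors, held when each of the 31 tumors was left out. Over these, *Bcl2* in *MYCN*/*Alk* tumors ranged from 0.77 to 0.91, *Bcl2l11* from 0.75 to 0.88 and *Bid* from −0.83 to −0.71. The counts of members called were 3, 3, 2 and 0 (F1178L against R1279Q) in every case, and 0 to 1 for background. No paired analysis was possible because tumor numbers are not shared between genotypes. The number of tumors limits the precision, and *Bcl2* lay above log2 4 in only 4 of 10 *MYCN* tumors, so that its fold is a bound.

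With a filter at log2 6 only *Mcl1* and *Bax* were tested, so that the members called in the main fit were no longer tested. The counts against *MYCN* were then 0 of 2. Of the 7089 genes tested there, 43.2% were called in *MYCN*/*Alk*, 49.2% in F1178L and 19% in R1279Q against *MYCN* tumors. With 129S2 tumors alone the F1178L count was 5, where 49.8% of all tested genes were called. With 129B6F1 tumors alone the R1279Q count was 1, where 7.33% of all tested genes were called. There *Bcl2l11* did not pass (0.83, limma adjusted p = 0.0829). Between the mutations, array weights gave 3 calls, *Bcl2*, *Bbc3* and *Bid*, while calling 32.6% of all tested genes, and 129S2 tumors 1, while calling 28%. Against *MYCN*, array weights also called *Bax* lower in *MYCN*/*Alk* (−0.43) and F1178L (−0.70) tumors, while calling 58.2% and 62.5% of all tested genes. So did 129S2 alone (−0.56 and −0.83), while calling 46.1% and 49.8%. The cause was not tested.

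Differences that changed sign were not called under either setting. By background, *Bcl2* was 0.48 in R1279Q tumors only. *Mcl1* was −0.0095 with age as a covariate, an alternative chosen after seeing the data. *Bcl2l11* was −0.61 with age, −0.0115 with array weights and −0.11 in R1279Q tumors only. *Bid* was 0.16 with age, 0.0744 with array weights, 0.0431 with equal medians, 0.037 with quantile normalization, 0.24 in F1178L tumors only and 0.0565 with sex. Between the mutations, *Bcl2* was −0.20, *Mcl1* −0.0487, *Bcl2l11* 0.0977 and *Bid* 0.0702 within 129B6F1. In the fit with covariates for background and sex *Mcl1* was −0.0047 and *Bcl2l11* 0.0366, and with age *Bcl2l11* was 0.0069. Against *MYCN*, with 129S2 alone *Mcl1* was −0.0628 in F1178L and −0.0945 in *MYCN*/*Alk*, *Bax* −0.28 and *Bbc3* 0.11 in R1279Q. With 129B6F1 alone *Bax* was 0.0016 in F1178L and 0.35 in *MYCN*/*Alk*, *Bbc3* −0.15 in *MYCN*/*Alk* and *Mcl1* 0.20 in R1279Q. With array weights *Mcl1* was −0.0031 in *MYCN*/*Alk* and *Bax* −0.17 in R1279Q. *Mcl1* in R1279Q was 0.0144 with equal medians and 0.0080 with quantile normalization. With 1 tumor left out, *Mcl1* ranged from −0.0074 to 0.0911 in F1178L, from −0.0378 to 0.0607 in *MYCN*/*Alk* and from −0.0795 to 0.0303 in R1279Q, *Bax* in R1279Q from −0.0812 to 0.17, and *Bbc3* in R1279Q from −0.15 to 0.0091. By background *Bcl2l11* then ranged from −0.14 to 0.24 and *Bid* from −0.0892 to 0.10.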
